A study of Mus musculus with 12 samples.

Results

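The Eph receptors, ephrins, Slits, Robos and netrins with their receptors are the classic axon guidance families of the retina. Their genes were taken from the RNA-seq tables by symbol: every identifier listed in the RGC table and in the non-RGC table that named an Eph receptor, an ephrin, a Slit, a Robo, a netrin, a netrin-G, an Unc5 receptor or Dcc. This gave 40 of 38720 genes: 9 EphA receptors, 5 EphB receptors, 5 ephrin-A ligands, 3 ephrin-B ligands, 3 Slits, 4 Robos, 4 netrins, 2 netrin-Gs, and 5 netrin receptors. All 40 were found in the GENCODE M21 annotation of GRCm38. Of these, 39 passed the filter on low values, and Ntn5, with 0 to 2 normalised reads in every library, did not.

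Retinas of P0 mice of the C57/BL6 strain were dissociated and separated into retinal ganglion cells (RGCs), captured with magnetic beads against CD90 (Thy-1), and the remaining retinal cells (non-RGCs). The mKO pups were Math5Cre+;Ezh2f/f, with Cre driven by the Math5 (Atoh7) gene and the exons for the catalytic SET domain of Ezh2 flanked by loxP sites, and the WT pups were wild type. The paper describes the Cre line as a knock-in. Cre itself, its knock-in, the floxed allele and the loss of Ezh2 therefore cannot be told apart. Each of the 4 groups (mKO RGC, WT RGC, mKO non-RGC and WT non-RGC) had 3 libraries, from 3 independent RNA extractions. Math5 marks progenitors that can become RGCs, Cre reaches only a part of the RGCs and few other retinal cells, and so the mKO RGC libraries hold a mixture of cells with and without the deletion. The libraries are called A, B and C within each group, in order of depth, because the values carried no replicate number.

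Eph receptors are receptor tyrosine kinases that bind ephrins on neighbouring cells; ephrin-A ligands are held in the membrane by a lipid anchor, and ephrin-B ligands span it. Opposing gradients of these molecules along the axes of the retina sort RGC axons into an ordered map in the brain. Slits are secreted proteins that repel growth cones through Robo receptors, netrin-1 at the optic disc draws RGC axons into the optic nerve through Dcc, and Unc5 receptors turn the netrin response into repulsion. Ezh2, the enzyme deleted here, writes a repressive methyl mark on histone H3, mostly at promoters rich in CpG. The comparison of mKO with WT asks whether loss of Ezh2 in the Math5 lineage changes RNA levels of such genes.

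Depth was 10600964 to 13014004 reads on genes in the RGC libraries and 7139633 to 12828281 in the non-RGC libraries. Summed over 12 RGC markers, the RGC libraries had 2059 to 2766 RPM (reads per 1000000 reads on genes) and the non-RGC libraries 513 to 814 RPM. The RGC marker sum was 2059 to 2130 RPM in mKO RGCs against 2619 to 2766 RPM in WT RGCs, and 608 to 814 RPM in mKO non-RGCs against 513 to 539 RPM in WT non-RGCs. Thy1, the capture antigen, was at 67.04, 79.6 and 93.2 normalised reads in mKO non-RGCs and 4.51, 1.94 and 9.38 in WT non-RGCs. Ezh2 was at 1354, 1476 and 1443 normalised reads in mKO RGCs and 1189.9, 1206 and 1678 in WT RGCs, a log2 difference of 0.09 ± 0.13 (SE; limma adjusted p = 0.637). The count covers the whole gene and not the deleted exons alone, so it is no strict check of the genotype. Blood markers were higher in the mKO libraries of both fractions (24.3 to 30.2 against 9.34 to 11.04 RPM in RGCs, 56.9 to 85.9 against 11.7 to 19.2 RPM in non-RGCs). WT RGC library C and WT non-RGC library C stood apart from the other libraries of their groups, with 11 of the 39 genes more than 1.5-fold from the other libraries in each. Over all genes tested, their median log2 distances from the other libraries of the group were 0.25 and 0.27. Those of mKO non-RGC libraries A and C were as large, at 0.26 and 0.29. In WT RGC library C the progenitor marker sum was 2005 RPM against 1196 and 1249 RPM in libraries A and B. In bulk RNA of this kind, fewer cells of a type and less RNA per cell cannot be told apart.

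The genes differ in base composition, to which the results below return, and the same stretch of 6 Eph receptors is shown here for that reason. It codes for the catalytic loop of the kinase and the residues around it, lies within 1 exon in each gene, and is 90 bases long (GENCODE M21, GRCm38, sense strand, 5′ to 3′). G and C are in capitals. The first 3 genes were called higher in mKO RGCs and the last 3 lower, before any trend with GC was removed.
Epha5 (chr5:84084751-84084840, minus strand): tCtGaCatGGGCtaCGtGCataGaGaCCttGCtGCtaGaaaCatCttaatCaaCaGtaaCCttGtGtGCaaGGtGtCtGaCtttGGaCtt
Epha6 (chr16:59775588-59775677, minus strand): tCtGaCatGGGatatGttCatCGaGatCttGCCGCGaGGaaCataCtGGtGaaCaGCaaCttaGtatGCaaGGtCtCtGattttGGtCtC
Epha7 (chr4:28950434-28950523, plus strand): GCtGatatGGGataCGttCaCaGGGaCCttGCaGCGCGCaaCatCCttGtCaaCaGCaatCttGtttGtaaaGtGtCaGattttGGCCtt
Epha8 (chr4:136932324-136932413, minus strand): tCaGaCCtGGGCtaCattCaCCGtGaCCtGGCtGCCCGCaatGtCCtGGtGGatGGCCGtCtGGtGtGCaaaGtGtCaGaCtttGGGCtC
Ephb2 (chr4:136659614-136659703, minus strand): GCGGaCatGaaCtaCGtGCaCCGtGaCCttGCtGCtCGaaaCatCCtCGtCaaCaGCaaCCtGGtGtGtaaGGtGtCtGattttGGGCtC
Ephb4 (chr5:137369788-137369877, plus strand): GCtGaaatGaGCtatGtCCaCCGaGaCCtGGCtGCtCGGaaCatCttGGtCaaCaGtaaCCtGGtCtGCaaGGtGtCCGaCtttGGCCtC

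The stretch was 44.4%, 45.6% and 46.7% G and C in Epha5, Epha6 and Epha7 and 58.9%, 53.3% and 54.4% in Epha8, Ephb2 and Ephb4. At the third base of the codons, where the code is loosest, the share was 53.3%, 50% and 46.7% against 66.7%, 70% and 73.3%. Epha6 and Epha8 were identical at 66.7% of these bases. The stretch of Ephb3, which was also called lower, is not shown and was 51.1% G and C. In Eph receptors that were not called, the stretch ranged from 46.7% in Epha3 to 60% in Epha2, so it did not separate the genes by call. Over the longest transcript of each gene, GC content was 40.1% in Epha5, 48.04% in Epha6 and 41.7% in Epha7, and 61.3% in Epha8, 55.3% in Ephb2 and 58.4% in Ephb4.

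Promoters are shown for the EphA receptors with the largest rise and the largest fall in mKO RGCs, because Ezh2 acts mostly at CpG-rich promoters. These are the 250 bases before the start of the gene (RefSeq, GRCm38.p6), 5′ to 3′ on the strand of the gene, with CG in capitals.
Epha6 (chr16:60605532-60605781, minus strand): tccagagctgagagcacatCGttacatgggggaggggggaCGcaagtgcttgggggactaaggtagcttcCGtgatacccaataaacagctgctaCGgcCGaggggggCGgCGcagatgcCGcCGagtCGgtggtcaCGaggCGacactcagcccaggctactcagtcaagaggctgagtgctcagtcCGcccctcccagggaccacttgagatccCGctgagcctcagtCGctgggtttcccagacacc
Epha8 (chr4:136956817-136957066, minus strand): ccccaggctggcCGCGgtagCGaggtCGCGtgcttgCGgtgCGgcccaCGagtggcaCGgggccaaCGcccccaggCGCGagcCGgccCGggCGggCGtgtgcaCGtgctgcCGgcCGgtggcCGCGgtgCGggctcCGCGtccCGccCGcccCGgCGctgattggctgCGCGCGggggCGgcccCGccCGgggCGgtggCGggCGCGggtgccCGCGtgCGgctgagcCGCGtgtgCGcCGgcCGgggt

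The letters CG, which read the same on both strands, occurred 15 times in the Epha6 window and 46 times in the Epha8 window. Of the 40 genes, 35 had a promoter in the table, and 29 of these held CG at least 10 times, against 40.2% of all 27025 genes with a promoter. The median number was 17 in the 35 genes and 6 in all genes. The median was 23 in the 5 genes that were higher in mKO RGCs (15 to 32), 20 in 11 of the 12 that were lower (4 to 46) and 15 in 18 of the 22 that were not called (2 to 35).

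Levels in each fraction came first, since they say for which of these guidance genes the P0 fractions held RNA. They were measured as RPKM, RPM per 1000 bases of exon. All annotated exons of a gene count in this length, and the order of genes depends on it. Epha8, an EphA receptor, had the highest mean level of the 40 genes, at 55.1, 53.2 and 69.2 RPKM in WT RGCs and 91.4, 90.4 and 80.6 RPKM in WT non-RGCs. It was followed by the ephrins Efnb3 and Efna2 and the receptor Ephb2. Efnb3 was at 53.7, 51.1 and 53.8 RPKM in WT RGCs and 44.2, 45.5 and 41.5 RPKM in WT non-RGCs. Efna2, the ephrin-A of the highest level, was at 41.8, 38.98 and 46.8 RPKM in WT RGCs and 42.9, 46.9 and 43.4 RPKM in WT non-RGCs. Ephb2 was at 33.9, 34.01 and 34 RPKM in WT RGCs and 37.2, 38.4 and 48.3 RPKM in WT non-RGCs. The ranges of the 6 RGC and 6 non-RGC libraries overlapped for all 4 of these genes.

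Among the Slit ligands, Slit1 was highest in RPKM at 12.5 to 16.2 RPKM in RGCs and 7.29 to 16.2 RPKM in non-RGCs, Slit2 followed at 3.50 to 5.69 and 3.76 to 6.31 RPKM, and Slit3 was at 0.212 to 1.07 and 0.115 to 0.490 RPKM. The annotated exons cover 25433 bases in Slit2 and 5921 in Slit1, against longest transcripts of 9960 and 5673 bases. Slit2 had more reads than Slit1 in every library, so the order of these genes depends on the length used. Robo2, the Robo of the highest level, was at 27.8, 27.7 and 28.4 RPKM in mKO RGCs, 27.04, 28.3 and 23.02 RPKM in WT RGCs, 16.9, 14.8 and 12.6 RPKM in mKO non-RGCs and 14.9, 16.01 and 19.2 RPKM in WT non-RGCs. Every RGC library was thus above every non-RGC library for Robo2, with a ratio of the means of 1.72. Robo1 was lower, at 6.57 to 7.23 RPKM in RGCs and 6.01 to 13.3 RPKM in non-RGCs. Robo4, the Robo of blood vessels, was at no more than 0.627 RPKM in any library. Netrin-1 itself (Ntn1), which is made mainly by glia of the optic disc, was at 0.372 to 3.88 RPKM in RGCs and 0.245 to 0.990 RPKM in non-RGCs. The mesenchyme marker sum also varied widely between the RGC libraries (31.4 to 1276 RPM), and its part in the spread of Ntn1, Slit3 and Robo4 was not tested.

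For 7 of 39 genes every RGC library lay above every non-RGC library (18.0% of 16517 genes), and for 6 every RGC library lay below (15.2% of genes). The 7 were Efna3, Epha5, Epha6, Ntn3, Ntng1, Robo2 and Unc5d. With a ratio of the means of at least 3, 5 were above (9.81% of genes) and 0 were below (0.896% of genes). No test was made between the fractions, since their tables were normalised separately and the values were set side by side as RPKM. With the authors' size factors in place of the depth, 8 genes were above (Unc5c was added) and 2 below (Efnb2 and Epha3).

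Epha6 stood out most. It was at 9.11, 8.40 and 9.61 RPKM in mKO RGCs and 4.91, 4.64 and 3.62 RPKM in WT RGCs, but at 0.531, 0.386 and 0.371 RPKM in mKO non-RGCs and 0.249, 0.281 and 0.324 RPKM in WT non-RGCs, a ratio of 18.8. Ntng1, a lipid-anchored netrin-G that binds its own ligand and not Dcc, was at 13.8, 12.7 and 13.99 RPKM in mKO RGCs, 10.8, 10.4 and 7.51 RPKM in WT RGCs, 1.19, 0.991 and 1.10 RPKM in mKO non-RGCs and 0.718, 0.817 and 0.809 RPKM in WT non-RGCs, a ratio of 12.3. No other gene of the families had a ratio above 4.

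The ephrin Efna3 was at 17.4 to 27.2 RPKM in RGCs and 4.74 to 6.83 RPKM in non-RGCs (ratio 3.85). The repulsive netrin receptor Unc5d was at 1.79 to 5.72 and 0.987 to 1.65 RPKM (ratio 3.55), with the lowest RGC value in WT library C. Ntn3 was at 5.63 to 8.12 and 1.64 to 3.67 RPKM (ratio 3.07), on the exon length of a gene model that may differ from the one the authors counted. Efna3 shares 14.1% of its exon bases with a gene on the opposite strand, and the libraries did not keep the strand. The 6 genes below in RGCs were Efnb1, Efnb2, Epha3, Ephb3, Ntng2 and Unc5b. Epha3 and Ntng2 had the largest ratios of these, with means 2.31-fold and 2.32-fold higher in non-RGCs. The 2 netrin-Gs, which bind different partners, were ordered oppositely between the fractions as RPKM, but with the authors' size factors the ranges of Ntng2 overlapped. The levels of all 40 genes are plotted by library.

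**Figure D1:**
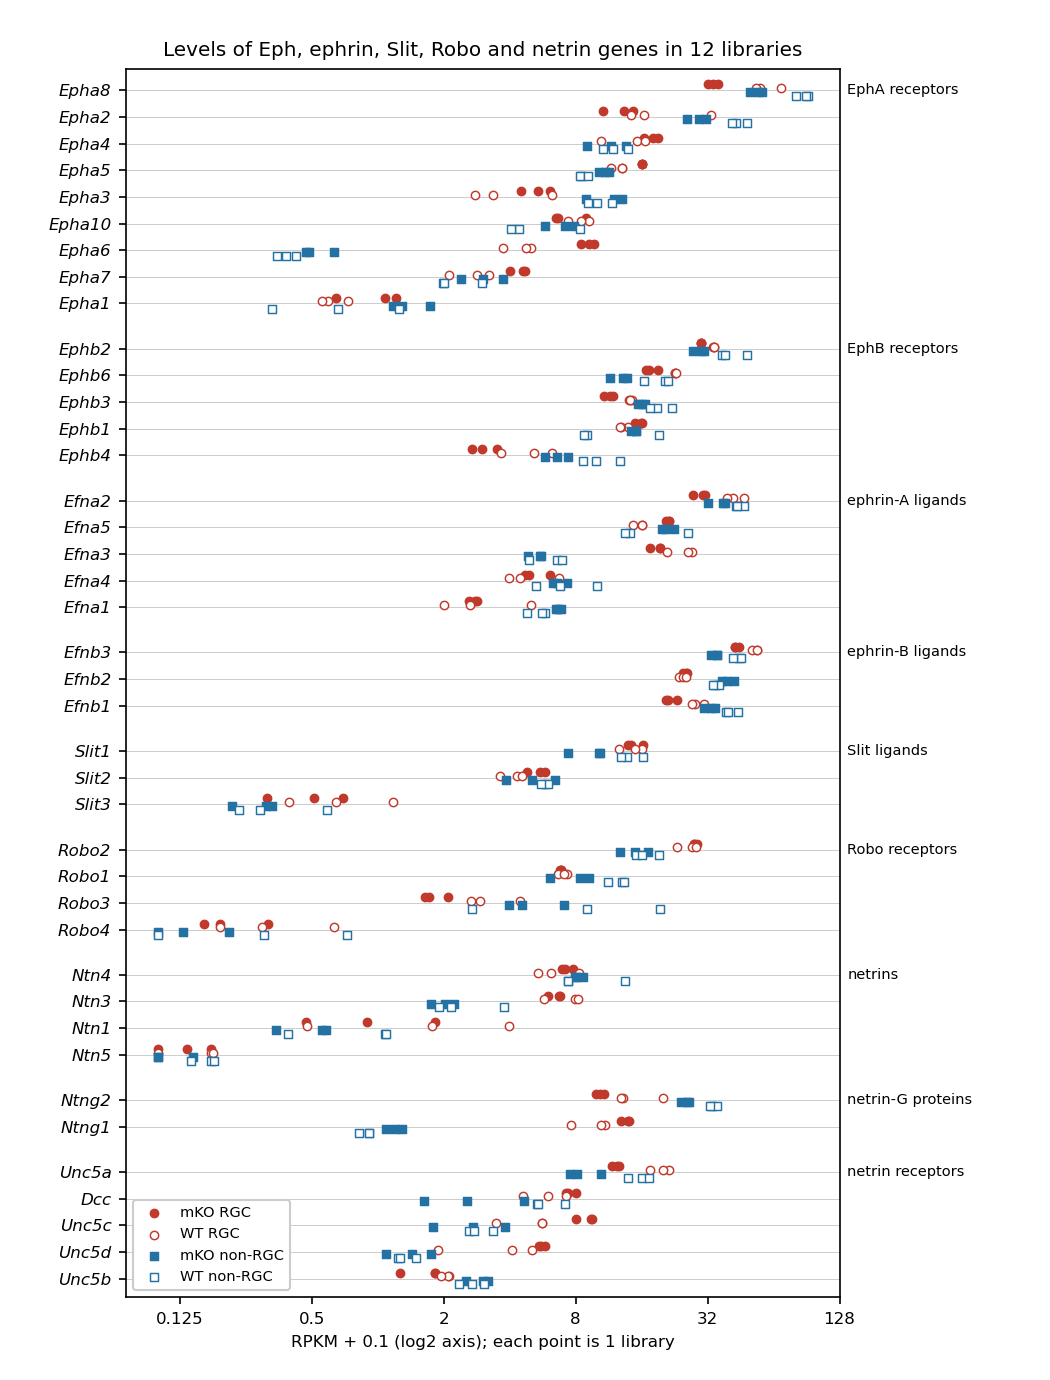
RPKM (plus 0.1, log2 axis) of the 40 genes in the 12 libraries, grouped by family, with 1 point for each library. Red circles are RGC and blue squares non-RGC libraries, filled for mKO and open for WT. Epha6 and Ntng1 show the widest gap between the fractions, Epha8 the highest level, and Robo4 and Ntn5 the lowest.

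In RGCs, 17 of 39 genes differed between mKO and WT at an adjusted p-value under 0.05, with 5 higher and 12 lower in mKO. Over all 16085 genes tested, 37.5% were called (16.3% higher and 21.2% lower), beside 43.6% of the 39 genes (12.8% higher and 30.8% lower). The median log2 difference was -0.24 over the 39 genes and -0.0024 over all genes.  Among the EphA receptors 3 of 9 were higher and 1 lower, whereas among the EphB receptors 4 of 5 were lower. Of the ephrins, 1 of 8 was higher and 4 lower. No Slit and no netrin was called, 1 of 4 Robos and 1 of 2 netrin-Gs were lower, and of the netrin receptors Unc5c was higher and Unc5a lower. Of the 12 RGC markers, 10 were also lower in mKO RGCs (21.2% of all genes), Thy1 among them (log2 -0.73, limma adjusted p = 0.000651). With the trends with GC and read density removed (as described further on), 2 of the 12 were lower and Thy1 was not called (log2 -0.23, limma adjusted p = 0.0921). Before that, 4 of 8 amacrine, 4 of 8 photoreceptor and 4 of 10 progenitor markers were lower too. The part of these marker differences in the results was not tested. The values below are normalised read counts, in order of libraries A, B and C, and fold differences are on the log2(value + 1) scale of limma.

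The EphA receptors Epha6, Epha7 and Epha5 were higher in mKO RGCs as normalised by the authors. Once the trend with GC, and then also that with read density, was removed (as described further on), Epha6 alone stayed called, Epha7 was at 0.31 and 0.07 on the log2 scale and Epha5 turned to -0.14 and -0.09. Epha6 was at 547, 509 and 593 in the mKO RGC libraries and 324, 310.5 and 237 in the WT RGC libraries, 1.90-fold higher in mKO (log2 0.93 ± 0.13 (SE), adjusted p = 0.00245, n = 3 per group, limma). All mKO libraries lay above all WT libraries. Epha7 was at 504, 442 and 531 in the mKO RGC libraries and 385, 342 and 246 in the WT RGC libraries (log2 0.62 ± 0.17 (SE), adjusted p = 0.0269). Epha5, an EphA receptor with a role in the retinal map, was at 3045, 3049 and 3126 in the mKO RGC libraries and 2707, 2735 and 2376 in the WT RGC libraries, a difference of only 1.18-fold (log2 0.24 ± 0.07 (SE), adjusted p = 0.0274). Neither Epha7 nor Epha5 had overlapping groups. Their calls were lost when any 1 of the 3 mKO RGC libraries was left out (largest adjusted p = 0.0976 and 0.0964), while that of Epha6 held in all 6 cases.

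Epha8 moved the other way. It was at 1716, 1926 and 1862 in the mKO RGC libraries and 3248, 3178 and 4034 in the WT RGC libraries, 1.89-fold lower in mKO (log2 -0.92 ± 0.10 (SE), adjusted p = 0.000946). The highest mKO library was well below the lowest WT library. Epha2, a receptor also found on progenitors and epithelia, was at 702, 780.1 and 578 in the mKO RGC libraries and 953, 840.3 and 1908 in the WT RGC libraries (log2 -0.76 ± 0.30 (SE), adjusted p = 0.0848). Its 3 mKO values lay below its 3 WT values, but WT library C, which had the high progenitor markers, was far above the rest, and the part of those cells was not tested. It was called without WT library C (log2 -0.39, limma adjusted p = 0.0278) and without WT library B (log2 -0.98, adjusted p = 0.0421). The other EphA receptors, Epha1, Epha3, Epha4 and Epha10, had overlapping groups, with log2 differences from -0.31 to 0.55. Without WT RGC library C, Epha3 was higher in mKO (log2 0.67, limma adjusted p = 0.00441), and without mKO library C Epha10 was lower (log2 -0.47, adjusted p = 0.0304).

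The EphB receptors, which read ephrin-B ligands in the dorsoventral map and at the optic chiasm, were lower in mKO RGCs except for Ephb1 as normalised by the authors. None of these 4 calls held with the GC trend or both trends removed: the log2 differences were then -0.01 and 0.10 for Ephb2, -0.07 and -0.14 for Ephb3, -0.39 and -0.51 for Ephb4 and -0.02 and -0.04 for Ephb6. Ephb2 was at 4259.7, 4301 and 4363 in the mKO RGC libraries and 5339.5, 5431 and 5303 in the WT RGC libraries, a small but tight difference (log2 -0.31 ± 0.05 (SE), adjusted p = 0.00256). Ephb3 was at 888, 812 and 885 in the mKO RGC libraries and 1150.4, 1214 and 1161 in the WT RGC libraries (log2 -0.45 ± 0.06 (SE), adjusted p = 0.00193). Ephb6, which lacks kinase activity, was at 736, 814 and 734 in the mKO RGC libraries and 1070.3, 1083 and 1068 in the WT RGC libraries (log2 -0.50 ± 0.06 (SE), adjusted p = 0.00145). The groups of these 3 genes did not overlap, and the spread within a group was small beside the gap. Ephb4, best known from veins, was at 179, 153 and 140.2 in the mKO RGC libraries and 206, 297 and 352 in the WT RGC libraries, the lowest level of the EphB receptors (log2 -0.83 ± 0.21 (SE), adjusted p = 0.0201). Its call was lost without mKO library B or C or WT library B. Ephb1, the receptor of RGC axons that do not cross at the chiasm, was at 1178, 1286 and 1288 in the mKO RGC libraries and 1203, 1132 and 1100.5 in the WT RGC libraries (log2 0.13 ± 0.06 (SE), adjusted p = 0.159), and its groups overlapped. Ephb1 was chosen for these values after they were seen.

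Of the ligands, the ephrin-A gene Efna5 was higher in mKO RGCs, and Efna2, Efna3, Efnb1 and Efnb3 were lower, as normalised by the authors. None of these 5 calls held with the GC trend or both trends removed: the log2 differences were then 0.15 and 0.21 for Efna5, -0.21 and -0.10 for Efna2, -0.17 and -0.15 for Efna3, -0.10 and -0.07 for Efnb1 and -0.02 and 0.16 for Efnb3. Efna5, which shapes the map in the target and in nasal axons, was at 942, 985 and 996 in the mKO RGC libraries and 807, 812 and 721 in the WT RGC libraries (log2 0.32 ± 0.07 (SE), adjusted p = 0.0102). Efna2 was at 749, 739 and 680.4 in the mKO RGC libraries and 1113, 1052 and 1234 in the WT RGC libraries (log2 -0.65 ± 0.08 (SE), adjusted p = 0.00126), with the widest gap of the ephrins. Efna3 was at 531, 541 and 493 in the mKO RGC libraries and 827, 801 and 623 in the WT RGC libraries (log2 -0.51 ± 0.12 (SE), adjusted p = 0.0133). Its call was lost without mKO library C (adjusted p = 0.0569). Efnb1 was at 905, 831 and 825 in the mKO RGC libraries and 1200.1, 1187 and 1312 in the WT RGC libraries (log2 -0.53 ± 0.07 (SE), adjusted p = 0.00154). Efnb3 was at 1533, 1614 and 1582 in the mKO RGC libraries and 2136, 2062 and 2120.5 in the WT RGC libraries (log2 -0.42 ± 0.05 (SE), adjusted p = 0.00113). None of the 5 genes had overlapping groups. Efna1, Efna4 and Efnb2 had log2 differences of -0.24 ± 0.33, -0.04 ± 0.23 and -0.07 ± 0.05 (SE), and their groups overlapped.

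Among the Slit ligands, Slit1 was at 927, 964 and 1119 in the mKO RGC libraries and 1182, 1115 and 918 in the WT RGC libraries and Slit2 at 1558, 1375 and 1686 in the mKO RGC libraries and 1341, 1441 and 1102 in the WT RGC libraries. Neither differed beyond the spread (log2 -0.09 ± 0.11 (SE), adjusted p = 0.558; 0.25 ± 0.12 (SE), adjusted p = 0.13), and the groups overlapped. The receptor Robo3, best known for commissural axons of the hindbrain and spinal cord, was at 120.4, 156 and 129 in the mKO RGC libraries and 243, 223 and 369.9 in the WT RGC libraries, 2.02-fold lower in mKO (log2 -1.01 ± 0.21 (SE), adjusted p = 0.00977). It was the gene with the largest called fall, and the call held whichever library was left out. Robo2, the main Robo of RGCs, was at 5357, 5388 and 5629 in the mKO RGC libraries and 5738, 6085 and 4837 in the WT RGC libraries (log2 -0.02 ± 0.09 (SE), adjusted p = 0.887). Robo1 was at 1272, 1268 and 1308 in the mKO RGC libraries and 1356, 1512 and 1419 in the WT RGC libraries (log2 -0.15 ± 0.06 (SE), adjusted p = 0.0765), with all mKO values just below all WT values. Robo4 had at most 35.8 normalised reads in an RGC library, and its difference had an SE of 0.68 on the log2 scale.

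In the netrin group, the receptors Unc5c and Unc5a moved apart. Unc5c was at 2033, 1748 and 2081 in the mKO RGC libraries and 1322, 1339.6 and 798 in the WT RGC libraries, 1.74-fold higher in mKO (log2 0.80 ± 0.20 (SE), adjusted p = 0.0192). All mKO values were above all WT values, but the call was lost without mKO library A or C. Unc5a was at 578, 552 and 606 in the mKO RGC libraries and 1112, 1057 and 892 in the WT RGC libraries, 1.76-fold lower in mKO (log2 -0.81 ± 0.09 (SE), adjusted p = 0.0011). The attractive receptor Dcc was at 1086, 1071 and 1218 in the mKO RGC libraries and 967, 1188 and 734 in the WT RGC libraries (log2 0.25 ± 0.16 (SE), adjusted p = 0.271), with overlapping groups. Unc5d was at 599, 564 and 584 in the mKO RGC libraries and 462, 581 and 204 in the WT RGC libraries (log2 0.61 ± 0.35 (SE), adjusted p = 0.207), with WT library C far below the other libraries. Unc5b, an Unc5 also found in vessels, had a log2 difference of -0.49 ± 0.18 (SE).

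Ntng2 was at 464, 449 and 497 in the mKO RGC libraries and 652, 645 and 983 in the WT RGC libraries (log2 -0.66 ± 0.16 (SE), adjusted p = 0.0183). The groups did not overlap, yet the call was lost without any 1 of the 3 mKO libraries, and 14.0% of the exon bases of Ntng2 are shared with another gene on the same strand. Its relative Ntng1 was at 1289, 1202 and 1345 in the mKO RGC libraries and 1112, 1083 and 766 in the WT RGC libraries (log2 0.39 ± 0.14 (SE), adjusted p = 0.0692). Ntn1, Ntn3 and Ntn4 had log2 differences of -0.86 ± 0.88, -0.28 ± 0.16 and 0.04 ± 0.16 (SE), and all overlapped. Without WT library C, Ntn1 (log2 -1.78), Ntn3 (log2 -0.46), Ntng1 (log2 0.22) and Robo1 (log2 -0.16) were called by limma, with adjusted p = 0.0399, 0.00204, 0.013 and 0.0421.

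In RGCs the 3 mKO values were all above the 3 WT values in 6 of 39 genes (24.8% of all genes) and all below in 15 (28.2% of all genes). With RPM in place of the authors' size factors, 37.8% of all genes were called, the median difference of all genes was 0.12, and 63.2% of all calls were higher in mKO against 43.5% before. In the families, 8 genes were then higher and the same 12 lower, with Ntng1, Slit2 and Ephb1 added to the higher genes. Efna4, Efnb2, Robo2 and Slit1, none of them called, changed sign under this scaling.

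The direction of the difference went with base composition. Of the 13 genes with under 50% GC in their longest transcript, 5 were higher in mKO RGCs and 0 lower, and 11 had a positive difference. Of the 26 with 50% or more, 0 were higher and 12 lower, and 23 had a negative difference. The same held over all genes: 29.7% of those under 50% GC were called higher and 7.43% lower, against 2.21% and 35.6% of those at 50% or more. Spearman's rho between GC content and the log2 difference was -0.757 over the 39 genes and -0.710 over the 12798 genes whose mean count reached 50 in RGCs. In non-RGCs it was -0.469 over the 39 genes and -0.511 over 12232 genes. The genes share libraries, so these are descriptions and carry no p-value.

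**Figure D2:**
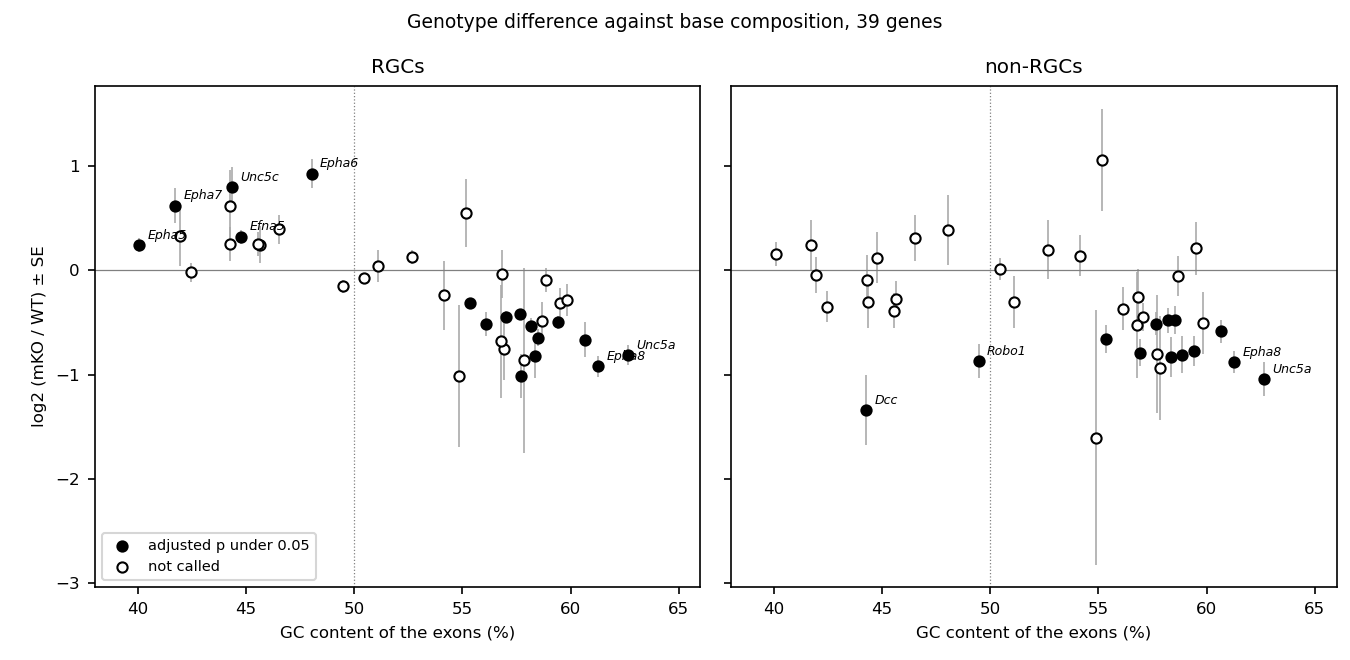
Log2 difference of mKO against WT (± SE, 3 libraries per group) against GC content for the 39 genes in RGCs (left) and non-RGCs (right). The GC content is that of the longest transcript of each gene, although the axis names the exons. Filled points had an adjusted p under 0.05, and the dotted line marks 50% GC. In RGCs the 5 called genes left of the line are higher in mKO and the 12 right of it lower, and in non-RGCs Dcc and Robo1 are the 2 called genes left of it.

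When the trend of each library with GC content was removed, 3 of 39 genes were called in RGCs, against 14.7% of all genes. With the trend with read density removed as well, 2 were called, against 6.68% of all genes. Epha6 kept its rise under both (log2 0.90 ± 0.14 (SE), adjusted p = 0.00939; 0.80 ± 0.14 (SE), adjusted p = 0.026). Ephb1 was called under both (log2 0.32 ± 0.06 (SE), adjusted p = 0.0224; 0.31 ± 0.07 (SE), adjusted p = 0.0447), although it was not called before. Epha8 was lower with the GC trend removed (log2 -0.36 ± 0.09 (SE), adjusted p = 0.0419) and was not called with both removed (log2 -0.26 ± 0.09 (SE), adjusted p = 0.126). The difference of Epha5 turned to -0.14 and -0.09, and with both trends removed those of Ephb2 and Efnb3 turned to 0.10 and 0.16, none of them called. Unc5c remained positive (log2 0.60 ± 0.21 (SE), adjusted p = 0.0959; 0.48 ± 0.21 (SE), adjusted p = 0.229), and Robo3 negative (log2 -0.61 ± 0.20 (SE), adjusted p = 0.0868; -0.73 ± 0.23 (SE), adjusted p = 0.115). With the GC trend removed, Spearman's rho between GC content and the log2 difference in RGCs was -0.349 over the 39 genes and -0.03 over 12798 genes. With both trends removed it was -0.35 and -0.051, so a relation with GC remained among the 39 genes. The part of base composition in the differences of the other genes was not tested beyond these fits.

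**Figure D3:**
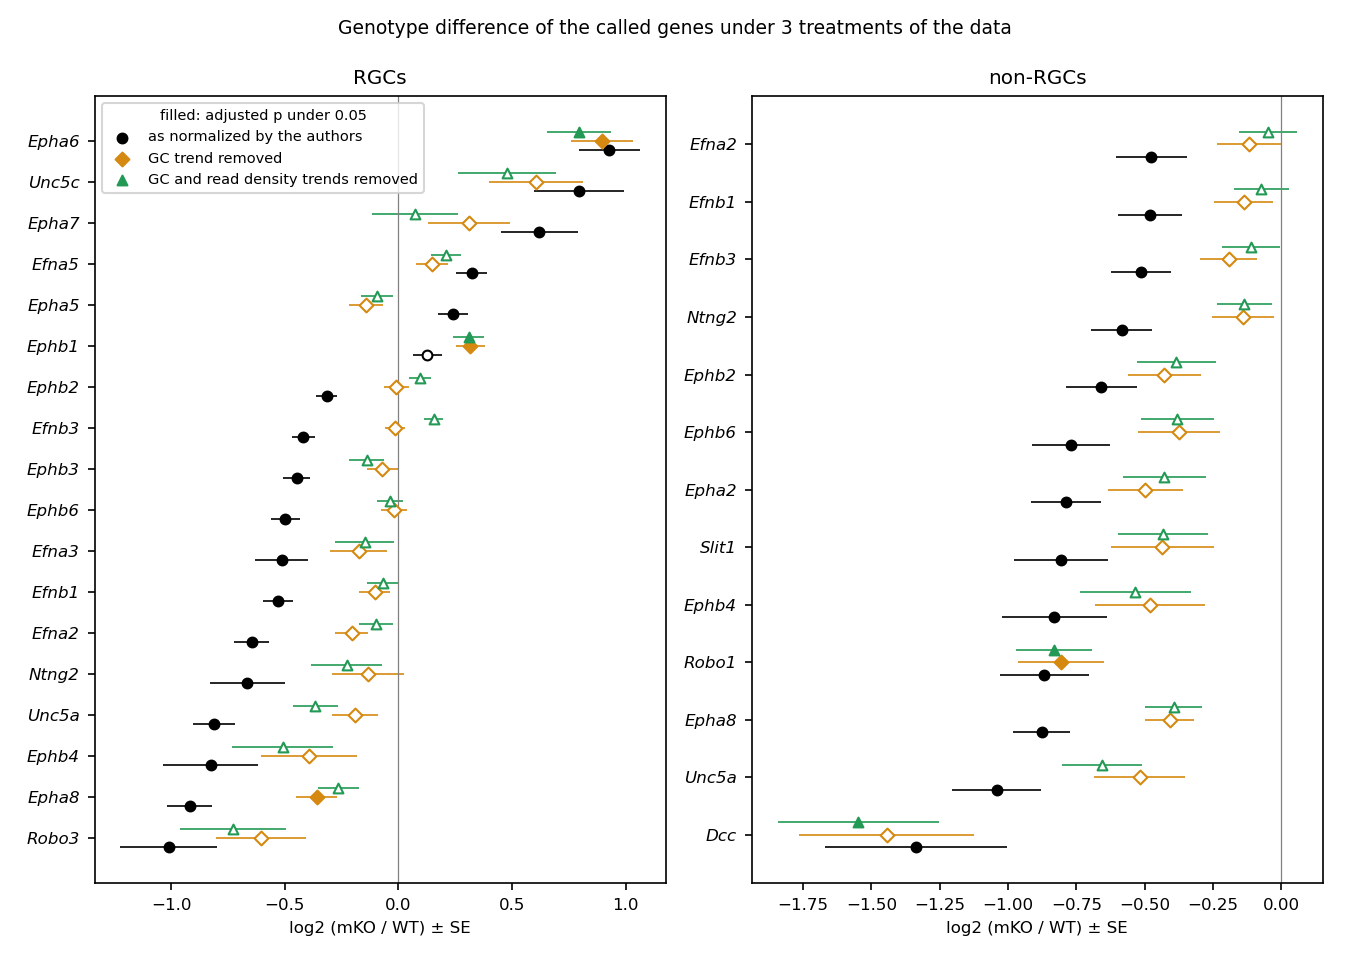
Log2 difference of mKO against WT (± SE) for the genes called under any of 3 treatments of the data in RGCs (left) and non-RGCs (right), as normalised by the authors (black), with the GC trend removed (orange) and with the GC and read density trends removed (green); filled symbols had an adjusted p under 0.05. Epha6 and Ephb1 in RGCs and Robo1 and Dcc in non-RGCs are filled in green, and the genes called before lie nearer to 0 once the trends are removed, except Dcc in non-RGCs.

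In non-RGCs, 13 of 39 genes were lower in mKO and 0 higher by limma (13 and 0 with voom weights), against 10.6% of all 15326 genes called (4.18% higher and 6.43% lower). At an unadjusted p under 0.05, 16 were lower and 0 higher, 41.0% of the 39 genes beside 29.9% of all genes. The median log2 difference was -0.39 over the 39 genes and -0.03 over all genes. Of the 13, 9 were also lower in RGCs: Epha8, Ephb2, Ephb4, Ephb6, Efna2, Efnb1, Efnb3, Ntng2 and Unc5a. Their calls, and those of Epha2, Robo1, Slit1 and Dcc, are given below. Few non-RGCs are of the Math5 lineage, and 8 of the 12 RGC markers were higher in mKO non-RGCs, Thy1 among them (log2 3.86, adjusted p = 0.0048). With both trends removed, 5 of the 12 were higher, Thy1 again among them (log2 4.03, limma adjusted p = 0.0127). The part of these cells and markers in the results was not tested.

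Among the Eph receptors, Epha8 was at 2331, 2515 and 2689 in mKO non-RGCs and 4724, 4712 and 4394 in WT non-RGCs, 1.84-fold lower in mKO (log2 -0.88 ± 0.10 (SE), adjusted p = 0.0048). The highest mKO value was far below the lowest WT value. Epha2 was at 1446, 1345 and 1212 in mKO non-RGCs and 2196, 2124 and 2606 in WT non-RGCs (log2 -0.79 ± 0.13 (SE), adjusted p = 0.00948). Ephb2 was at 3698, 3820.0 and 3496 in mKO non-RGCs and 5141, 5359.9 and 7048 in WT non-RGCs (log2 -0.66 ± 0.13 (SE), adjusted p = 0.0185). Ephb4 was at 334, 295 and 267 in mKO non-RGCs and 498, 440.3 and 679.8 in WT non-RGCs (log2 -0.83 ± 0.19 (SE), adjusted p = 0.0277). None of these 4 receptors had overlapping groups, but the call of Ephb4 held in only 2 of the 6 fits that left out 1 library (largest adjusted p = 0.119), and those of Epha2 and Ephb2 in 5. Ephb6 was at 487, 507 and 432 in mKO non-RGCs and 846, 878 and 714 in WT non-RGCs (log2 -0.77 ± 0.14 (SE), adjusted p = 0.0149), again without overlap, and its call held in 4 of 6. Ephb3, called in RGCs, was at 1083, 1004 and 1069 in mKO non-RGCs and 1366, 1276 and 1688 in WT non-RGCs (log2 -0.45 ± 0.14 (SE), adjusted p = 0.0624) and missed the threshold.

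Epha6, higher in mKO RGCs under all 3 treatments of the data, was low in non-RGCs at 27.7, 20.1 and 19.8 in mKO non-RGCs and 14.4, 16.5 and 19.8 in WT non-RGCs (log2 0.39 ± 0.34 (SE), adjusted p = 0.461). Epha5, Epha7 and Efna5 had log2 differences of 0.16, 0.24 and 0.12, and none was called. WT non-RGC library C was high for Efna5 (1217 against 623 and 594) and for Ephb1 (1557 against 688 and 666). Without it, Ephb1 was higher in mKO (log2 0.60, limma adjusted p = 0.0248).

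The ephrins Efna2, Efnb1 and Efnb3 were lower, as in RGCs, with the authors' size factors. None of the 3 was called with RPM or with the trends removed, where the log2 differences were -0.12 and -0.05 for Efna2, -0.14 and -0.07 for Efnb1 and -0.19 and -0.11 for Efnb3 (GC trend and both trends removed). Efna2 was at 673, 809 and 809 in mKO non-RGCs and 1002, 1106 and 1069.8 in WT non-RGCs (log2 -0.48 ± 0.13 (SE), adjusted p = 0.047). Efnb1 was at 1053, 1126 and 1198 in mKO non-RGCs and 1467, 1671 and 1576 in WT non-RGCs (log2 -0.48 ± 0.12 (SE), adjusted p = 0.0328). Efnb3 was at 1044, 1104 and 1129.7 in mKO non-RGCs and 1545, 1602 and 1529 in WT non-RGCs (log2 -0.51 ± 0.11 (SE), adjusted p = 0.0232). None overlapped, though the calls of Efna2, Efnb1 and Efnb3 held in only 1, 2 and 3 of the 6 fits that left out 1 library. Ntng2 was at 1016, 950.5 and 1053 in mKO non-RGCs and 1463, 1548 and 1517 in WT non-RGCs (log2 -0.58 ± 0.11 (SE), adjusted p = 0.0165). Unc5a was at 329, 426 and 313 in mKO non-RGCs and 729.9, 793 and 665 in WT non-RGCs (log2 -1.04 ± 0.16 (SE), adjusted p = 0.0086), and along with Epha8 it was called whichever library was left out, while the call of Ntng2 held in 4 of 6 fits.

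The receptor genes Robo1 and Dcc and the ligand gene Slit1 were called in non-RGCs and not in RGCs. Robo1 was at 1482, 1345 and 999.8 in mKO non-RGCs and 2027, 2355 and 2535 in WT non-RGCs, 1.82-fold lower in mKO (log2 -0.87 ± 0.16 (SE), adjusted p = 0.0149). Slit1 was at 594, 596 and 435 in mKO non-RGCs and 885, 842 and 1109 in WT non-RGCs (log2 -0.81 ± 0.17 (SE), adjusted p = 0.0228). Dcc was at 596, 320.3 and 202 in mKO non-RGCs and 754, 773 and 1072 in WT non-RGCs, 2.53-fold lower (log2 -1.34 ± 0.33 (SE), adjusted p = 0.0347). No groups overlapped, but the mKO values of Dcc spread from 202 to 596, and its call held in 1 of 6 fits with a library left out, against 4 of 6 for Robo1 and for Slit1. Slit2 was at 1587, 1239 and 964 in mKO non-RGCs and 1585, 1653 and 1615 in WT non-RGCs (log2 -0.39 ± 0.17 (SE), adjusted p = 0.163), and was called without mKO library A (log2 -0.56, adjusted p = 0.0433). Robo3 was at 303, 471 and 268 in mKO non-RGCs and 1458, 677 and 206 in WT non-RGCs (log2 -0.80 ± 0.56 (SE), adjusted p = 0.366), with the WT libraries far apart. Without WT library C, the log2 difference of Robo3 was -1.56 (adjusted p = 0.035).

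The count varied with the library left out: 2 genes were called without mKO non-RGC library B, 4 without WT library B and 8 without WT library A. Such fits have fewer libraries, and the share of all genes called in them is not given here. With all libraries, 11 of the 26 genes with 50% or more GC were lower, beside 11.6% of all genes in that class. Under 50% GC it was 2 of 13, beside 1.39%. Whether the falls are particular to these families was not tested. The 3 mKO values were all below the 3 WT values in 15 of 39 genes (19.2% of all genes) and all above in 2 (17.5% of all genes). With the GC trend removed, Robo1 was the 1 gene called (1.29% of all genes; log2 -0.81 ± 0.16 (SE), adjusted p = 0.0486). With both trends removed, Robo1 and Dcc were called (1.52% of all genes; log2 -0.83 ± 0.14 (SE), adjusted p = 0.0344; -1.55 ± 0.30 (SE), adjusted p = 0.0454). The longest transcripts of Robo1 and Dcc have 49.5% and 44.3% GC. Epha8 and Unc5a were at -0.39 ± 0.10 and -0.66 ± 0.15 (SE, log2) with both trends removed and were not called. With RPM, 9 genes were lower and 0 higher, against 11.6% of all genes called, while 74.8% of all calls were higher against 39.4% before, and the median of all genes was 0.14.

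**Figure D4:**
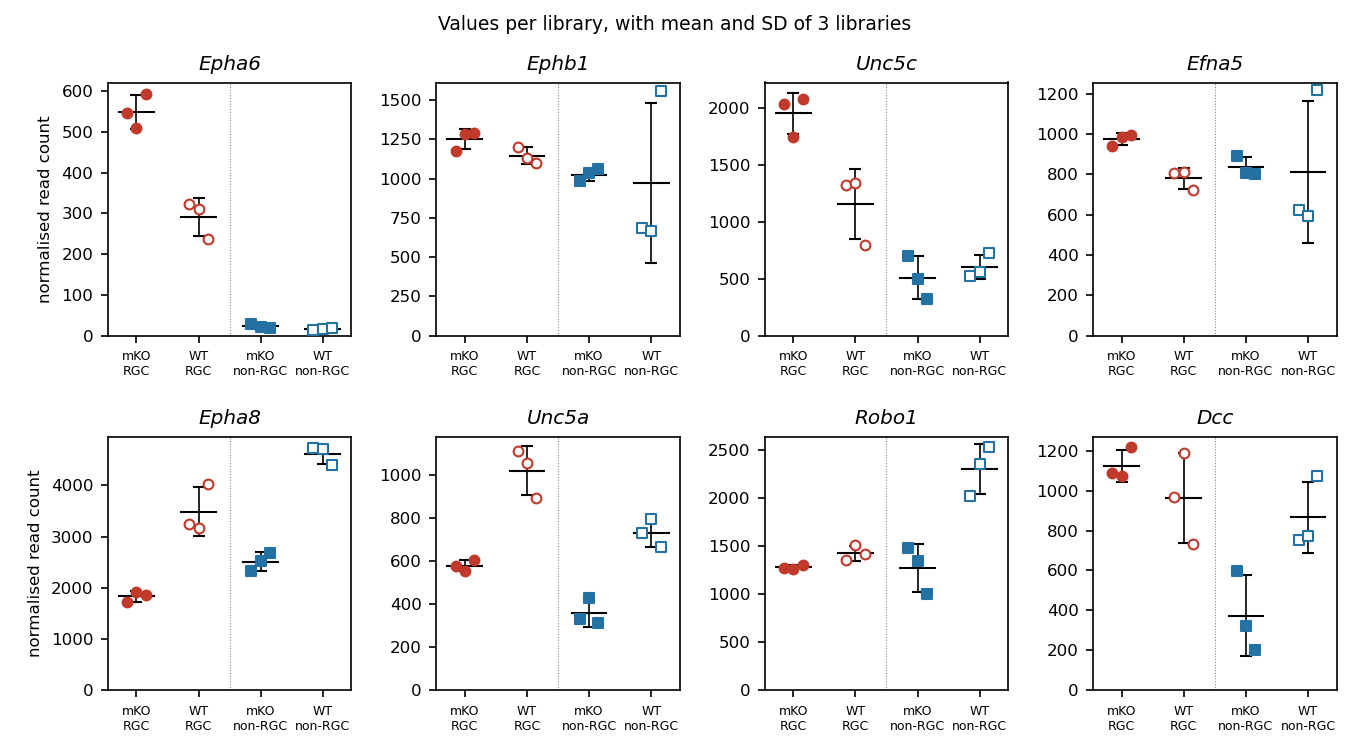
Normalised read counts of 8 genes in each library (points), with the mean and SD of 3 libraries per group (bars). Values left and right of the dotted line were normalised separately and are not to be compared. In RGCs Epha6, Unc5c and Efna5 are higher and Epha8 and Unc5a lower in every mKO library than in every WT library, and in non-RGCs Epha8, Unc5a, Robo1 and Dcc are lower.

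Whether the mKO effect differed between the fractions was tested in a fit over all 12 libraries. No gene of the families passed by limma (0 of 39, against 0.107% of 14894 genes, and 0 with voom weights), and the smallest adjusted p was 0.317, for Robo1. At an unadjusted p under 0.05 there were 6 of 39 (10.1% of all genes): Robo1, Dcc, Slit1, Slit2, Unc5c and Ephb2, all with the more positive difference in RGCs. The difference between the effects was 1.59 ± 0.43 (SE, log2; limma adjusted p = 0.357) for Dcc, 1.09 ± 0.36 for Unc5c (adjusted p = 0.417) and 0.71 ± 0.18 for Robo1. Without mKO non-RGC library A, Dcc (1.99, adjusted p = 0.0191), Robo1 (0.83, adjusted p = 0.0385) and Slit2 (0.82, adjusted p = 0.0496) were called. A call in only 1 fraction, as for Epha6 or Robo1, was therefore not a shown difference between the fractions. For Epha6 the difference was 0.54 ± 0.29 (SE, log2).

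Side by side, 22 of 39 genes were lower in mKO in both fractions, 7 higher in both and 10 of opposite sign, a share of like sign of 74.4% against 74.8% of 14894 genes. The genotype differences in RGCs and non-RGCs had a Spearman's rho of 0.712 over the 39 genes and 0.651 over all genes. With both trends removed these were 0.487 and 0.418.

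Genes that work with these families were read from lists of signalling partners. Of 24 genes of Eph and ephrin signalling, 4 were higher and 5 lower in mKO RGCs, a share of 37.5% beside 37.5% of all genes. In non-RGCs 0 were higher and 3 lower, 12.5% beside 10.6% of all genes. Of these genes, 2 were higher and 0 lower in RGCs once both trends were removed, 8.33% beside 6.68% of all genes. In non-RGCs 0 were then called, beside 1.52% of all genes. The kinase genes Src and Abl1 were lower in both fractions as normalised by the authors: Src (-0.55 ± 0.06 in RGCs, adjusted p = 0.000816; -0.55 ± 0.12 in non-RGCs, adjusted p = 0.0234) and Abl1 (-0.42 ± 0.06 in RGCs, adjusted p = 0.0024; -0.85 ± 0.13 in non-RGCs, adjusted p = 0.00763), as log2 differences with SE. The differences in RGCs and non-RGCs became 0.10 (adjusted p = 0.22) and -0.06 (adjusted p = 0.743) for Src and -0.05 (adjusted p = 0.571) and -0.55 (adjusted p = 0.0709) for Abl1 with both trends removed, and neither was called by limma.

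Of 19 genes of Slit and Robo signalling, 1 was higher and 8 lower in RGCs, 47.4% beside 37.5% of all genes, and 1 was higher and 4 lower in non-RGCs, 26.3% beside 10.6%. With both trends removed, 1 was higher and 3 lower in RGCs, 21.1% beside 6.68% of all genes. In non-RGCs 1 was then higher and 1 lower, 10.5% beside 1.52%. The higher gene was Flrt3, a membrane protein that binds Robo1, at 1076 and 536 normalised reads (means of mKO and WT) in RGCs and 1480.4 and 743 in non-RGCs. In both fractions it was close to 1 on the log2 scale: Flrt3 (1.01 ± 0.13 in RGCs, adjusted p = 0.00164; 1.00 ± 0.14 in non-RGCs, adjusted p = 0.00638). Enah, an actin regulator downstream of Robo, was lower: Enah (-0.33 ± 0.07 in RGCs, adjusted p = 0.0108; -0.65 ± 0.10 in non-RGCs, adjusted p = 0.00922). Flrt3 and Enah were still called in both fractions with both trends removed (log2 0.73 and 0.89 for Flrt3, -0.58 and -0.83 for Enah, in RGCs and non-RGCs). Evl and Arhgap39 were lower in both fractions as normalised by the authors, but were not called by limma with both trends removed, where the log2 differences in RGCs and non-RGCs were -0.19 (adjusted p = 0.0518) and -0.24 (adjusted p = 0.161) for Evl and -0.05 (adjusted p = 0.761) and -0.29 (adjusted p = 0.209) for Arhgap39.

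Of 17 genes of netrin signalling, 1 was higher and 5 lower in RGCs, 35.3% beside 37.5% of all genes, and 0 were higher and 3 lower in non-RGCs, 17.6% beside 10.6%. With both trends removed, 1 was higher and 0 lower in RGCs, 5.88% beside 6.68% of all genes. In non-RGCs 0 were then higher and 1 lower, 5.88% beside 1.52%. The repulsive guidance ligand Rgmb was lower in both fractions as normalised by the authors: Rgmb (-0.36 ± 0.11 in RGCs, adjusted p = 0.0398; -0.57 ± 0.14 in non-RGCs, adjusted p = 0.0323). It was at -0.46 (adjusted p = 0.0595) and -0.60 (adjusted p = 0.0471) with both trends removed, called by limma in non-RGCs alone.

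The last list held 15 transcription factors, morphogens and enzymes of retinal position and axon choice, among them the RGC marker Pou4f2. Of these, 0 were higher and 7 lower in RGCs, 46.7% beside 37.5% of all genes. In non-RGCs 2 were higher and 4 lower, 40% beside 10.6%. Tbx2, Tbx3 and Hmx1, factors of the dorsal or nasal retina, were lower in both as normalised by the authors. For Tbx2 the log2 differences were -0.84 in RGCs and -0.82 in non-RGCs, and with both trends removed -0.18 and -0.33, neither called. With both trends removed, 0 of the 15 were called in RGCs, beside 6.68% of all genes. In non-RGCs 1, the RGC factor Pou4f2, was then higher, 6.67% beside 1.52%. The medians of the 4 lists in RGCs were -0.08, -0.12, -0.11 and -0.38 on the log2 scale, in the order given, beside -0.0024 for all genes.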

How the data were processed

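Per the labels and the study's methods, the authors prepared poly-A libraries with a kit that does not mark strand, mapped them to mm10 by STAR 2.3.1z4 as single-end reads, removed duplicates, counted reads per gene with featureCounts, and divided the counts by DESeq size factors. Each deposited signal value is the mean of these normalised counts over the 3 libraries of a group. The deposited tables also hold the authors' own comparison (ratio, log2 ratio, p-values and adjusted p-values), which was not used. Columns of samples that were not used numbered 0.

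Because a mean keeps all its digits, the whole reads of each library could be solved for, with 1 solution for 100% of genes with reads, and this step was tested on simulated data. Values were analysed with limma 3.58.1 (trended prior, R 4.3.3) on log2(value + 1). A gene was tested where the mean of mKO or of WT reached 10, with Benjamini-Hochberg adjustment over all genes. The fold change of genes with few reads is understated on this scale, and the depth of each library limits their precision. Whether the extractions came from different litters is not given in the sources used here, so p-values measure the spread between these libraries. Exon lengths and GC content were from GENCODE M21 (GRCm38). The length was that of all annotated exons of a gene together, and GC content that of its longest transcript. Trends were removed by lowess (share 0.3) or the median of 300 neighbouring genes. Removing duplicates from single-end reads can lower the counts of genes with many reads per base, of which Epha8 had the most. The genes, lists and alternatives were chosen with earlier results of these data known. Values per library are printed for genes called in either fraction, the 2 of the highest level in each family, and those with a ratio of at least 3 between fractions; lists add up to 10 genes called in both fractions. Libraries were left out in turn.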

Additional observations from a re-analysis of the deposited data

How the results depend on the processing

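No paired analysis was possible because the recovered libraries carry no replicate number. In RGCs, 17 genes of the families were called, 3 with the GC trend removed, 2 with the GC and read density trends removed, 10 at an unadjusted p under 0.05 with a fold of at least 1.5, and 12 to 23 when a library was left out. The highest count, 23, was without WT RGC library C. For fits with a library left out, and for the rule with a fold, the share of all genes called is not given here. In non-RGCs, 13 were called, 1 with the GC trend removed, 2 with both removed, and 2 to 13 when a library was left out; the lowest were 2 without mKO non-RGC library B, 4 without WT library B and 8 without WT library A. For the difference between the fractions, 0 were called, 5 at an unadjusted p under 0.05 with a fold of at least 1.5, and 0 to 3 when a library was left out (3 without mKO non-RGC library A). Of genes whose fraction ranges did not overlap, 13 became 13 to 18 when a library was left out, with 18 without WT RGC library C. This number can only stay or rise, since leaving out a library can only narrow a range, so it is no check of the 13. Other pseudocounts, filters, centring, RPM and voom weights left each total of calls within 1.5 times, though with RPM the higher genes in RGCs rose from 5 to 8. In RGCs the sign changed for 7 genes with the GC trend removed, 11 with both removed and 4 with RPM, and in non-RGCs for 3 under each, none of them called after the change. Those called before were Epha5 in RGCs (-0.14 with the GC trend removed, -0.094 with both removed), Ephb2 (0.10 with both removed) and Efnb3 (0.16 with both removed), on the log2 scale. The cause was not tested. Robo4, with 0 to 38 reads, and Slit3, with 5 to 76, are limited by depth.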
